A study of Sus scrofa with 9 samples.

Results

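Mitosis and cytokinesis genes encode the proteins that condense and separate the chromosomes and then cut the cell into daughters. They cover kinetochore and centromere proteins, the spindle checkpoint, kinesin motors, spindle proteins, the cytokinesis machinery, the chromosomal passenger complex, condensin and chromosome proteins, and the regulators that drive entry into and exit from mitosis. A list of 59 such genes was looked up by gene symbol in the deposited expression tables of porcine embryonic fibroblasts (PEF). Measured values did not enter the look-up, but the list and the related lists below were chosen with earlier results of these data known. Of the 59 genes, 55 were matched to a gene ID and 54 passed the filter on low values, among 11063 genes tested. CCNA2, AURKA, PTTG1 and MKI67 were not matched by symbol and are not analysed here. CDC25C was matched but lay below the filter. Of the 54 tested members, 52 had at least 1 FPKM in all 9 libraries. KIF14 and KIF18A reached that level in 6 libraries each and stayed under it at 72 h.

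As background, a cell enters mitosis when cyclin B with CDK1 becomes active. It leaves mitosis when the anaphase-promoting complex, switched on by CDC20, marks cyclin B and securin for destruction. Between these steps, kinetochores built on the centromeres bind spindle microtubules, and the spindle checkpoint holds CDC20 back until every chromosome is attached. Many of these genes are transcribed mainly in G2 and mitosis, under the control of the DREAM and MuvB complexes and of FOXM1. Their RNA is therefore abundant in populations of dividing cells and low in resting fibroblasts.

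The cells were fibroblasts from pig embryos that had been thawed and grown in culture before insulin was added. The control group was untreated and harvested at 0 h. The treated groups were harvested 48 h and 72 h after insulin addition, with 3 libraries per group that the submitters call biological replicates. No source used here says that the replicates came from separate animals, so the p-values below measure the spread between these libraries. The sources used here do not give the insulin dose, the medium or the passage of the cells. No untreated culture of 48 h or 72 h was analysed here, so an effect of insulin and an effect of time in culture cannot be told apart. These are bulk cultures, and fewer dividing cells cannot be told apart from less RNA of these genes per cell.

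RNA was measured after removal of ribosomal RNA and is given as FPKM, sequenced fragments scaled to transcript length and library size, so that levels of different genes can be set side by side. Between 10761 and 10833 genes reached 1 FPKM in a library. The sum of all FPKM was 494369 ± 5639 at 0 h, 543945 ± 19344 at 48 h and 513986 ± 10455 at 72 h (SD, n = 3). The lowest correlation between libraries of the same group was 0.9896, above the highest between groups, 0.9869 (log2 values across the tested genes). In all, 0 pairs of libraries held identical values. Of 10 fibroblast markers, 9 were matched and all 9 exceeded 1 FPKM in every library. Their summed level was 21233 to 22152 FPKM at 0 h, 18957 to 20262 at 48 h and 21653 to 22057 at 72 h. Collagens, vimentin and fibronectin made up most of that sum, and low markers moved within it: from 0 h to 72 h the mean level went from 9.34 to 36.4 FPKM for PDGFRA, from 26.5 to 72.2 FPKM for DCN and from 12.7 to 48.3 FPKM for LUM. The 4 matched of 5 epithelial markers summed to 5.56 to 6.77, 12.2 to 13.2 and 9.11 to 10.4 FPKM at the 3 times, mostly KRT8. EPCAM was at most 0.08 FPKM and CDH1 at most 0.05. The 5 leukocyte markers summed to 1.54 to 2.23, 3.97 to 5.14 and 3.64 to 5.36 FPKM, mostly CD14, with PTPRC and CD3E at 0 in every library. The 3 matched of 4 endothelial markers summed to at most 1.16 FPKM, with CDH5 at 0. The epithelial and leukocyte sums were higher after insulin than at 0 h. The part of these markers and of PDGFRA, DCN and LUM in the results was not tested.

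Nearly every mitosis gene fell after insulin, and the fall went on between 48 h and 72 h. The summed level of the 54 tested members was 1649 ± 57.9 FPKM at 0 h, 773 ± 13.2 FPKM at 48 h and 393 ± 33.7 FPKM at 72 h (SD, n = 3), which is 46.9% ± 0.80 and 23.8% ± 2.05 of the 0 h mean. The members made up 0.333% ± 0.010 of all FPKM at 0 h, 0.142% ± 0.006 at 48 h and 0.076% ± 0.005 at 72 h. In 53 of the 54 members the mean level was ordered 0 h above 48 h above 72 h. The median member stood at 43.7% of its 0 h level at 48 h and at 20.9% at 72 h, and 43 members were below 25% at 72 h. The shares of all tested genes with that order of means, or below 25% at 72 h, are not given here. The levels the members started from spanned 3.68 to 196 FPKM at 0 h, with a median of 22.5, and 46 of them were at 10 FPKM or more.

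Changes were tested gene by gene with limma on log2(FPKM + 1), in one fit of the 9 libraries, and calls were made where the p adjusted by Benjamini-Hochberg over all 11063 tested genes was below 0.05. All log2 changes below are on this scale, on which changes of low genes come out too small. At 48 h against 0 h, 52 of 54 members were called lower and 0 higher, where 22.4% of all tested genes were called lower and 27.6% higher (49.9% in either direction). At 72 h against 0 h, 53 of 54 were called lower and 0 higher, against 22.5% lower and 23% higher of all genes (45.5% in either direction). At 72 h against 48 h, 51 of 54 were called lower and 0 higher, against 16.3% lower and 9.17% higher of all genes (25.4% in either direction). That last background rested on single libraries. In all, 2814 genes were called, 1725 without the second 48 h library and 1868 without the first 72 h library. The members called lower stayed between 49 and 52 in number whichever library was left out.

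Most members fell by at least 1 on the log2 scale against 0 h. The median log2 change of the members was -1.13 at 48 h, -1.97 at 72 h and -0.87 from 48 h to 72 h. That of all tested genes was 0.02, -0.01 and -0.03. A called fall of at least 1 on the log2 scale was found in 40 of 54 members at 48 h, in 52 at 72 h and in 16 from 48 h to 72 h, beside 1.43%, 3.06% and 0.506% of all tested genes. All libraries of the later time lay below all libraries of the earlier time for 52, 54 and 52 members in these comparisons, beside 27.6%, 30.4% and 23.9% of all genes. The opposite order held for 0 members and for 32.4%, 28.1% and 14.9% of all genes. With the FPKM rescaled to equal sums, the median of all genes at 48 h against 0 h moved from 0.02 to -0.10 and the higher share of all calls from 55.2% to 34.6%. The members' median was then -1.26. At 72 h against 48 h, the higher share of calls moved from 36.0% to 55.9% under that rescaling and to 48.6% under quantile normalization.

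**Figure D1:**
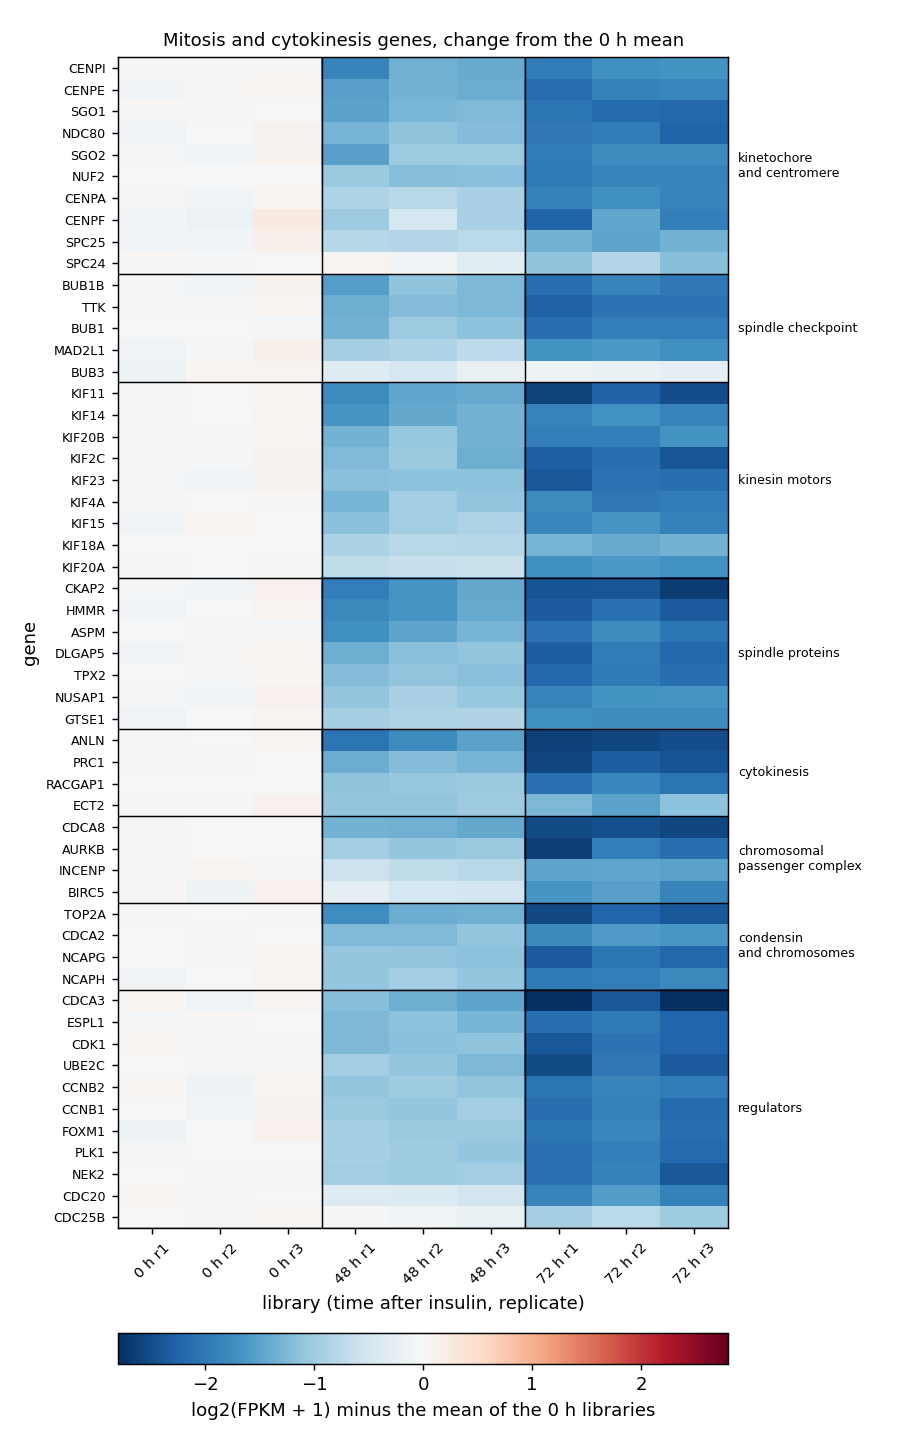
Log2 change of each tested mitosis gene in each of the 9 libraries against the mean of the 0 h libraries, on the log2(FPKM + 1) scale, with genes in rows ordered by functional class and libraries in columns. Colour deepens from 0 h to 48 h to 72 h in nearly all rows, and the rows of BUB3, SPC24 and CDC25B stay pale at 48 h.

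The fall was seen in each library taken alone. Against the 0 h mean, the median member changed by -1.17, -1.08 and -1.11 on the log2 scale in the 3 libraries of 48 h and by -2.06, -1.89 and -1.98 in those of 72 h. The medians of the 0 h libraries lay between -0.03 and 0.05. Among the 48 h libraries, the first held the lowest value of 32 members. Among the 72 h libraries, the second held the highest value of 38 members. Its summed member level of 431 FPKM stood above the 368 and 380 FPKM of the other libraries of that time.

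At the kinetochore, the protein machine that ties centromeres to microtubules, 9 of 10 members were lower at 48 h, 10 at 72 h and 9 at 72 h against 48 h, with medians of -1.16, -1.85 and -0.78. Of all tested genes, 22.4%, 22.5% and 16.3% were called lower in these comparisons. The NDC80 complex, which grips the microtubule end, has 4 subunits, all of them members. NUF2, its subunit with the highest level here, measured 29.3, 29.0 and 29.7 FPKM at 0 h, 13.7, 12.3 and 12.4 at 48 h, and 6.71, 7.24 and 7.34 at 72 h. The groups did not overlap, and NUF2 fell by 1.14 ± 0.06 on the log2 scale at 48 h (limma adjusted p = 8.55e-07) and by a further 0.77 ± 0.06 to 72 h (adjusted p = 2.76e-05). NDC80 fell to 40.4% and 20.3% of its 0 h mean, and SPC25 to 49.3% and 27.0%.

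SPC24, the partner of SPC25 in the same complex, was called only after 48 h. It measured 7.75, 7.34 and 7.59 FPKM at 0 h, 8.05, 7.13 and 5.97 at 48 h, and 2.91, 3.88 and 2.77 at 72 h. The 48 h libraries straddled the 0 h range and the 72 h libraries lay under both. The 48 h change of -0.10 ± 0.12 (SE) was not called (limma adjusted p = 0.511), and without the third 48 h library it was 0.00. The change at 72 h was -1.04 ± 0.12 (adjusted p = 3.61e-05). Whether the 48 h change of SPC24 differs from those of its 3 partner subunits was not tested.

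Among the centromere proteins, CENPF, a large kinetochore protein of G2 and mitosis, measured 20.8, 19.2 and 26.1 FPKM at 0 h, 10.4, 15.1 and 11.09 at 48 h, and 3.85, 7.35 and 5.02 at 72 h. Its replicates scattered widely, though the groups did not overlap. CENPF changed by -0.81 ± 0.19 at 48 h (limma adjusted p = 0.00592) and by -1.87 ± 0.19 at 72 h (adjusted p = 2.13e-05). CENPI, part of the inner kinetochore, measured 14.1, 13.1 and 13.9 FPKM at 0 h, 3.06, 4.78 and 4.56 at 48 h, and 2.78, 3.45 and 3.58 at 72 h. Its 48 h and 72 h libraries overlapped. It fell by 1.53 ± 0.13 at 48 h (adjusted p = 8.76e-06), and the later change of -0.25 ± 0.13 was not called (adjusted p = 0.168). That later change was called with library weights (-0.50, adjusted p = 6e-04) and without the first 48 h library (-0.41, adjusted p = 0.0148). CENPA, the histone H3 variant that marks centromeres, fell to 52.3% and 23.4% of its 0 h mean. CENPE, a kinesin that carries chromosomes to the spindle equator, fell to 34.0% and 21.5%. The shugoshins SGO1 and SGO2, which guard centromeric cohesin, fell to 34.4% and 38.9% at 48 h and to 16.3% and 20.8% at 72 h.

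The spindle checkpoint had 5 members, of which 5, 4 and 4 were lower in the 3 comparisons (medians -1.17, -1.99 and -0.82). The share of all tested genes called lower was 22.4%, 22.5% and 16.3%. MAD2L1, the checkpoint protein that binds and restrains CDC20, measured 45.1, 47.0 and 54.6 FPKM at 0 h, 25.3, 26.1 and 28.9 at 48 h, and 14.6, 15.4 and 14.1 at 72 h. The groups were well apart, with changes of -0.84 ± 0.08 at 48 h (limma adjusted p = 2.2e-05) and -0.82 ± 0.08 from 48 h to 72 h (adjusted p = 7.81e-05). The kinases BUB1 and TTK, which start checkpoint signalling at unattached kinetochores, fell to 21.0% and 18.2% of 0 h at 72 h, and BUB1B, a part of the inhibitor that blocks CDC20, to 22.5%.

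BUB3, the adaptor that brings BUB1 and BUB1B to kinetochores, was the member that changed least by 72 h. It measured 39.7, 45.9 and 46.3 FPKM at 0 h, 34.6, 31.5 and 38.1 at 48 h, and 39.5, 38.7 and 36.0 at 72 h. Its 48 h and 72 h libraries overlapped each other, and all of them lay below the 0 h libraries by a small margin. BUB3 fell by 0.33 ± 0.08 at 48 h (limma adjusted p = 0.00743). Its change of -0.20 ± 0.08 at 72 h was not called (adjusted p = 0.0709), and the step of 0.13 ± 0.08 between them was not called either (adjusted p = 0.262). The 72 h call depended on settings. BUB3 was called lower with equal FPKM sums (-0.26, adjusted p = 0.0381) and with quantile normalization (-0.24, adjusted p = 0.0328). It was also called without the first 0 h library (-0.27, adjusted p = 0.0316) and without the third 48 h library (-0.20, adjusted p = 0.0463).

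**Figure D2:**
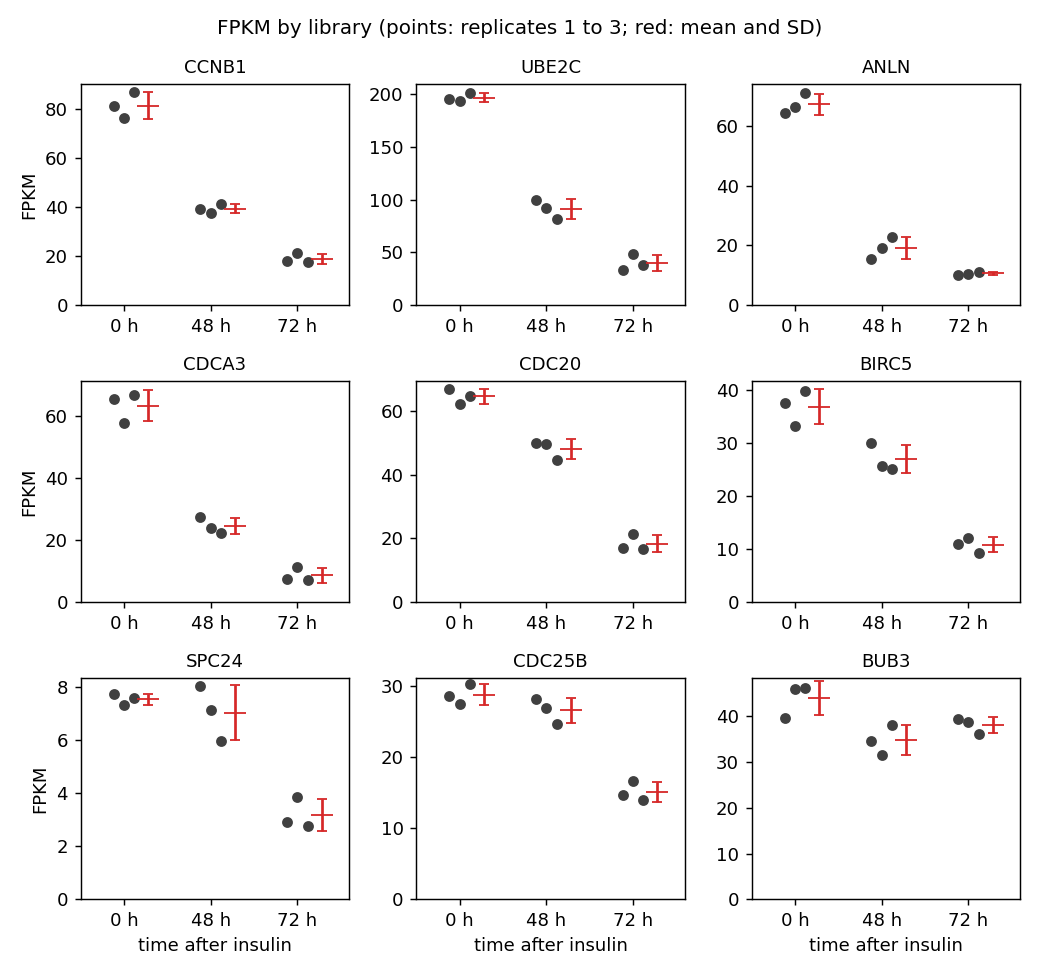
FPKM (vertical axes, linear from 0) of 9 mitosis genes at 0 h, 48 h and 72 h, with points for the 3 libraries of a time and a red bar for the mean and SD. CCNB1, UBE2C, ANLN and CDCA3 step down at both intervals, CDC20 and BIRC5 fall mostly after 48 h, SPC24 and CDC25B overlap between 0 h and 48 h, and BUB3 stays between 31.5 and 46.3 FPKM.

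Kinesin motors push and pull spindle microtubules and chromosomes. Beside 22.4%, 22.5% and 16.3% of all tested genes, all 9 were lower in each of the 3 comparisons (medians -1.15, -1.84 and -0.79). KIF20A, a motor that carries the chromosomal passenger complex to the central spindle, had the highest level and measured 51.5, 51.1 and 49.3 FPKM at 0 h, 30.6, 32.1 and 32.4 at 48 h, and 14.7, 16.0 and 15.0 at 72 h. Its replicates were tight and the groups far apart. The change of -0.66 ± 0.06 at 48 h (limma adjusted p = 1.03e-05) was followed by -1.01 ± 0.06 to 72 h (adjusted p = 3.57e-06). KIF23, the motor subunit of centralspindlin, measured 43.0, 41.7 and 46.7 FPKM at 0 h, 18.8, 19.2 and 19.3 at 48 h, and 7.82, 9.65 and 9.36 at 72 h. It changed by -1.15 ± 0.08 at 48 h (adjusted p = 2.82e-06) and by -2.18 ± 0.08 at 72 h (adjusted p = 1.79e-08). KIF11, the motor that pushes spindle poles apart, fell to 32.2% of its 0 h mean at 48 h and to 15.9% at 72 h.

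KIF14, a motor of the midbody, had levels of 5.12, 5.29 and 5.70 FPKM at 0 h, 1.02, 1.36 and 1.54 at 48 h, and 0.740, 0.960 and 0.750 at 72 h. Most of its fall came early, with -1.47 ± 0.10 at 48 h (limma adjusted p = 2.93e-06) and -0.34 ± 0.10 to 72 h (adjusted p = 0.0333). The later step of KIF14 rested on single libraries and settings. It was not called without the second 0 h library, the second or the third 48 h library, or the first or the third 72 h library (-0.34 to -0.27, adjusted p = 0.0504 to 0.0967). Nor was it called with equal FPKM sums (-0.30, adjusted p = 0.0670) or with no filter on low values (-0.34, adjusted p = 0.0724). The chromosome-bound KIF4A, the microtubule-shortening KIF2C, and KIF15, KIF18A and KIF20B stood between 18.1% and 22.8% of their 0 h means at 72 h.

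The 7 spindle proteins, which build and focus the spindle, were lower in every comparison (medians -1.21, -2.10 and -0.82). Over all tested genes, 22.4%, 22.5% and 16.3% were called lower. TPX2, which activates the kinase AURKA and seeds microtubules near chromosomes, measured 60.1, 57.3 and 62.7 FPKM at 0 h, 25.5, 27.2 and 26.1 at 48 h, and 12.3, 14.4 and 13.1 at 72 h. The groups did not overlap, and TPX2 changed by -1.16 ± 0.07 at 48 h (limma adjusted p = 1.08e-06) and -2.10 ± 0.07 at 72 h (adjusted p = 1.46e-08). DLGAP5, which stabilises kinetochore fibres, measured 29.5, 31.8 and 32.2 FPKM at 0 h, 11.5, 13.2 and 14.04 at 48 h, and 5.50, 7.26 and 6.05 at 72 h. Its changes of -1.21 ± 0.10 (adjusted p = 7.14e-06) and -2.15 ± 0.10 (adjusted p = 3.99e-08) were close in size to those of TPX2.

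CKAP2 and HMMR, a spindle-associated protein and a spindle protein that also binds hyaluronan, ranked next to ANLN for the largest 48 h falls of all members on the log2(FPKM + 1) scale. CKAP2 measured 29.9, 29.6 and 33.6 FPKM at 0 h, 7.31, 9.23 and 10.8 at 48 h, and 5.01, 5.06 and 4.07 at 72 h. It changed by -1.67 ± 0.12 at 48 h (limma adjusted p = 4.09e-06) and -2.49 ± 0.12 at 72 h (adjusted p = 7.08e-08). HMMR measured 16.6, 17.6 and 18.4 FPKM at 0 h, 4.32, 4.92 and 5.98 at 48 h, and 2.68, 3.33 and 2.68 at 72 h. It changed by -1.62 ± 0.11 (adjusted p = 2.35e-06) and -2.25 ± 0.11 (adjusted p = 5.2e-08). ASPM, which works at the spindle poles, fell to 29.0% and 18.3% of 0 h. The step of ASPM from 48 h to 72 h was not called without the first (-0.40, adjusted p = 0.0564) or the third 72 h library (-0.42, adjusted p = 0.0519). The microtubule binder NUSAP1 fell to 47.6% and 27.9%, and GTSE1, a microtubule-associated protein of G2 and mitosis, to 50.9% and 24.6%.

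The 4 cytokinesis genes were all lower at 48 h and 72 h against 0 h, and 3 were lower at 72 h against 48 h (medians -1.19, -2.21 and -0.85). The same calls covered 22.4%, 22.5% and 16.3% of all tested genes. ANLN encodes anillin, the scaffold of the contractile ring, and lies at chr18:37647952-37710939 in Sscrofa11.1. It measured 64.2, 66.3 and 71.1 FPKM at 0 h, 15.5, 19.2 and 23.0 at 48 h, and 10.1, 10.6 and 11.2 at 72 h. The groups lay far apart, and ANLN changed by -1.77 ± 0.11 at 48 h (limma adjusted p = 2.1e-06) and -2.55 ± 0.11 at 72 h (adjusted p = 3.58e-08). The 48 h fall of ANLN ranked first of all members on the log2(FPKM + 1) scale. In percent of 0 h, the lower-expressed KIF14 stood below ANLN at 48 h, at 24.3% beside 28.6%, and with a pseudocount of 0.1 their changes were -1.98 and -1.82. With the trend of each library on gene length removed, an alternative chosen after seeing the data, CKAP2 ranked first with -1.77 beside -1.64 for ANLN. RACGAP1, the other centralspindlin subunit, measured 43.5, 43.9 and 44.7 FPKM at 0 h, 19.5, 20.6 and 21.0 at 48 h, and 9.53, 11.8 and 9.96 at 72 h. Its falls of -1.08 ± 0.07 (adjusted p = 2.99e-06) and -1.99 ± 0.07 (adjusted p = 1.92e-08) were near those of its partner KIF23.

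ECT2, the exchange factor that switches on RhoA at the cell equator, measured 23.2, 23.3 and 26.5 FPKM at 0 h, 10.7, 10.8 and 11.5 at 48 h, and 9.63, 7.89 and 10.4 at 72 h. It fell by 1.07 ± 0.09 at 48 h (limma adjusted p = 1.11e-05), and its later change of -0.23 ± 0.09 was not called (adjusted p = 0.094), although the 72 h libraries lay below those of 48 h. That later change was called with library weights (-0.18, adjusted p = 0.0327) and with the trend on gene span removed (-0.29, adjusted p = 0.0283). PRC1, which bundles the microtubules of the central spindle, fell to 39.3% and 16.7% of 0 h.

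The 4 subunits of the chromosomal passenger complex, the kinase assembly that corrects faulty attachments and then steers cytokinesis, were lower in all 3 comparisons. Their median change was -0.86 at 48 h, -1.17 from 48 h to 72 h and -1.95 over the whole time. Of all tested genes, 22.4% were lower at 48 h, 16.3% at 72 h against 48 h and 22.5% at 72 h against 0 h. CDCA8, the borealin subunit, measured 39.5, 41.1 and 41.1 FPKM at 0 h, 15.7, 15.4 and 14.5 at 48 h, and 6.27, 6.51 and 6.15 at 72 h. It changed by -1.36 ± 0.06 at 48 h (limma adjusted p = 1.77e-07) and -2.51 ± 0.06 at 72 h (adjusted p = 3.07e-09). AURKB, the kinase of the complex, measured 22.5, 23.3 and 23.1 FPKM at 0 h, 11.2, 10.3 and 10.7 at 48 h, and 2.86, 5.27 and 4.58 at 72 h. It changed by -1.03 ± 0.14 (adjusted p = 0.000227) and -2.22 ± 0.14 (adjusted p = 5.15e-07).

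BIRC5, or survivin, the subunit that reads a phosphorylated histone H3 at the centromere, fell mostly after 48 h. It measured 37.5, 33.3 and 39.9 FPKM at 0 h, 30.1, 25.7 and 25.2 at 48 h, and 11.06, 12.2 and 9.29 at 72 h. The 48 h libraries lay below the 0 h libraries, and the 72 h libraries far below both. The change was -0.44 ± 0.10 at 48 h (limma adjusted p = 0.00588) against -1.25 ± 0.10 from 48 h to 72 h (adjusted p = 2.8e-05). INCENP, the scaffold subunit, fell to 58.0% and 29.4% of 0 h.

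Of the condensin and chromosome genes, 4 were matched and all 4 were lower in every comparison (medians -1.15, -2.05 and -0.88). Over all tested genes the share called lower was 22.4%, 22.5% and 16.3%. TOP2A, the topoisomerase that untangles sister chromatids, measured 49.8, 52.1 and 52.9 FPKM at 0 h, 14.9, 19.0 and 19.7 at 48 h, and 8.10, 10.3 and 9.19 at 72 h. It changed by -1.49 ± 0.11 at 48 h (limma adjusted p = 3.42e-06) and -2.37 ± 0.11 at 72 h (adjusted p = 3.72e-08). NCAPG, a condensin I subunit, measured 21.8, 21.7 and 22.9 FPKM at 0 h, 9.96, 9.74 and 9.37 at 48 h, and 3.58, 4.68 and 4.05 at 72 h. It changed by -1.11 ± 0.08 (adjusted p = 3.88e-06) and -2.19 ± 0.08 (adjusted p = 1.79e-08). Its partner subunit NCAPH fell to 46.4% and 23.2% of 0 h. CDCA2, which recruits a protein phosphatase to chromatin, fell to 34.9% and 20.7%.

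Among the regulators, 12 of 15 were matched and 11 tested, with 10 lower at 48 h, 11 at 72 h and 11 at 72 h against 48 h (medians -1.03, -2.06 and -1.03). Of all tested genes, 22.4%, 22.5% and 16.3% were called lower in these comparisons. UBE2C, the ubiquitin-conjugating enzyme that works with the anaphase-promoting complex, had the highest level of all members at 0 h and lies at chr17:48018403-48021542. It measured 195, 193 and 201 FPKM at 0 h, 99.6, 92.2 and 81.2 at 48 h, and 33.8, 48.4 and 38.0 at 72 h. The groups did not overlap, and UBE2C changed by -1.11 ± 0.11 at 48 h (limma adjusted p = 3.69e-05) and by -2.28 ± 0.11 at 72 h (adjusted p = 7.98e-08). CCNB1, or cyclin B1, measured 81.0, 76.0 and 86.6 FPKM at 0 h, 39.1, 37.7 and 41.2 at 48 h, and 18.1, 21.2 and 17.4 at 72 h. It changed by -1.03 ± 0.08 (adjusted p = 6.09e-06) and -2.05 ± 0.08 (adjusted p = 2.19e-08). CDK1, the kinase that cyclin B activates, measured 47.7, 44.4 and 44.2 FPKM at 0 h, 18.4, 19.8 and 20.4 at 48 h, and 8.02, 10.1 and 8.97 at 72 h. Cyclin B1 and CDK1 stood at 23.3% and 19.9% of their 0 h means at 72 h, and cyclin B2 (CCNB2) at 22.9%.

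CDCA3, an F-box-like protein that triggers mitotic entry, had the largest fall of all members at 72 h. It measured 65.4, 57.7 and 66.8 FPKM at 0 h, 27.3, 23.9 and 22.2 at 48 h, and 7.39, 11.4 and 7.24 at 72 h. It changed by -1.34 ± 0.14 at 48 h (limma adjusted p = 4.6e-05), -2.75 ± 0.14 at 72 h (adjusted p = 1.06e-07) and -1.42 ± 0.14 between them (adjusted p = 9.47e-05). The mitotic kinases PLK1 and NEK2 fell to 19.4% and 17.6% of 0 h at 72 h, and ESPL1, the separase that cleaves cohesin, to 16.6%. FOXM1, the transcription factor that activates many genes of this list, measured 11.2, 12.4 and 13.6 FPKM at 0 h, 5.97, 5.52 and 5.49 at 48 h, and 2.31, 2.78 and 2.05 at 72 h. Its changes of -1.01 ± 0.10 (adjusted p = 2.14e-05) and -1.99 ± 0.10 (adjusted p = 6.36e-08) were close to the members' medians of -1.13 and -1.97.

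CDC20 and CDC25B moved mainly in the second interval. CDC20, the activator of the anaphase-promoting complex, measured 66.9, 62.2 and 64.8 FPKM at 0 h, 50.1, 49.5 and 44.6 at 48 h, and 17.1, 21.3 and 16.7 at 72 h. It fell by 0.42 ± 0.09 at 48 h (limma adjusted p = 0.00307) and by 1.35 ± 0.09 from 48 h to 72 h (adjusted p = 7.95e-06). CDC25B, a phosphatase that activates CDK1 at mitotic entry, measured 28.6, 27.5 and 30.4 FPKM at 0 h, 28.2, 26.9 and 24.7 at 48 h, and 14.7, 16.6 and 14.1 at 72 h. Its 48 h libraries overlapped those of 0 h, and the change of -0.11 ± 0.08 was not called (adjusted p = 0.251). Its change at 72 h was -0.89 ± 0.08 (adjusted p = 5.35e-06). With equal FPKM sums the 48 h change of CDC25B was -0.24 and called (adjusted p = 0.0103). Its relative CDC25C had too low a level to be tested, with 0.80 to 1.12 FPKM at 0 h, 0 to 0.82 at 48 h and 0 to 0.34 at 72 h.

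**Figure D3:**
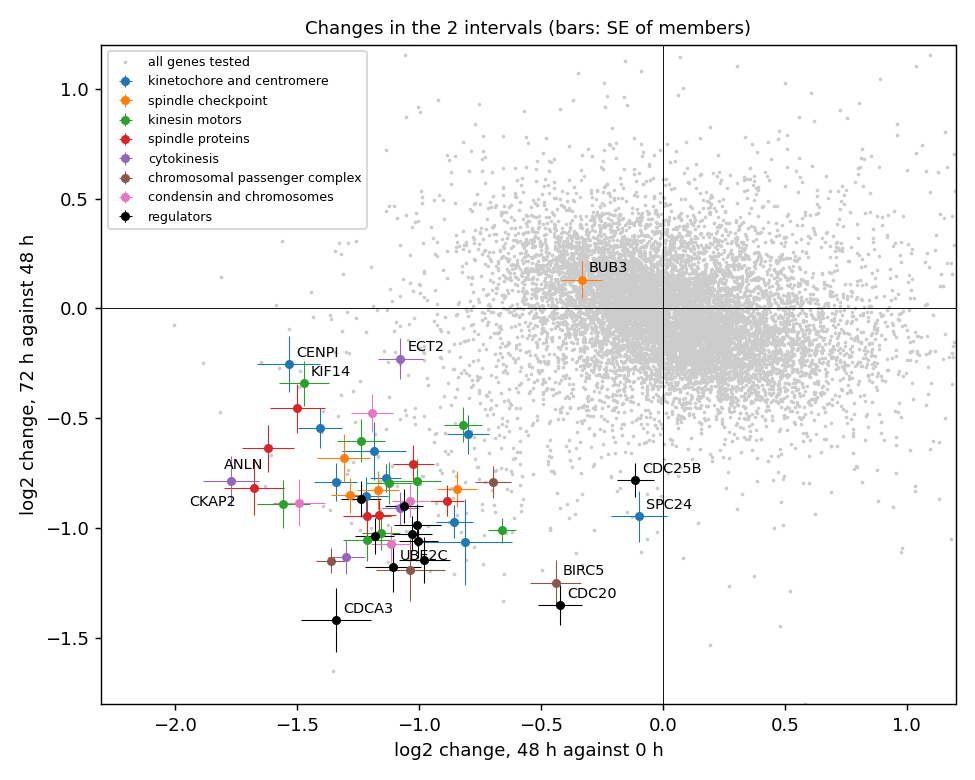
Log2 change at 48 h against 0 h (horizontal axis) and at 72 h against 48 h (vertical axis) of each tested mitosis gene, coloured by functional class with bars of 1 SE, over all tested genes in grey, some of which lie beyond the axes; both changes use the 48 h libraries. Nearly all members lie in the lower left quadrant, with SPC24 and CDC25B near 0 on the horizontal axis, CENPI and ECT2 near 0 on the vertical axis, and BUB3 above it at 0.13.

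The members' falls split differently over the intervals. On the log2(FPKM + 1) scale, 13 of the 54 changed more from 48 h to 72 h than from 0 h to 48 h. This scale shrinks the later step more, so the count tends to come out too low. No share over all tested genes is given for it. The interval from 0 h to 48 h was the longer, and the counts and shares given here are not scaled to hours. The members' median change was -1.13 over this longer interval and -0.87 from 48 h to 72 h. Per hour, the median fall was thus larger after 48 h. Leaving out BUB3, whose 72 h change was not called, the share of the 72 h log2 fall already reached at 48 h had a median of 55.3% over 53 members. It ran from 9.27% for SPC24, 12.6% for CDC25B, 23.8% for CDC20, 26.0% for BIRC5 and 39.6% for KIF20A up to 81.2% for KIF14, 82.5% for ECT2 and 85.8% for CENPI. These shares are a description of the members' means, and the ends of the order were named after the values were seen. The log2(FPKM + 1) scale shrinks changes more at the lower levels of 72 h, so the shares tend to come out too high. FOXM1 changed by -1.01 and then -0.98 on that scale. In FPKM, FOXM1 went to 45.7% of its 0 h mean at 48 h and to 42.0% of its 48 h mean at 72 h.

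The split went with the length of the gene in the genome. Across the 53 members, Spearman's rho between this share and the span of the gene, introns included, was 0.68, as a description over genes that share all 9 libraries. The scale of the shares shrinks changes more in low genes, and the part of expression level in this rho was not tested. UBE2C and CDCA3 span 3.14 and 2.998 kb and CDC20, at chr6:167886266-167890587, spans 4.32 kb. ECT2 spans 62.5 kb and KIF14 spans 54.5 kb. Single members departed from the order: UBE2C and CDCA3, among the shortest, had shares of 48.5% and 48.6%, and KIF4A, with 128 kb, had 58.6%, all near the median of 55.3%. Others went against it: CKAP2 and SGO1, with 15.4 and 15.3 kb, had 67.2% and 63.0%, and CENPF, with 63.9 kb, had 43.3%. Over the 54 members, rho between span and log2 change was -0.37 at 48 h against 0 h, 0.60 at 72 h against 48 h and 0.09 at 72 h against 0 h. All 9310 tested genes with a span gave -0.41, 0.39 and -0.16 in the same comparisons. Longer genes thus tended to be lower at 48 h across all genes too. The relation also appeared between replicates, where the difference of the first and the third 48 h libraries had a rho with span of -0.53 over the members and -0.46 over all genes. No other pair is given here, and over all genes this pair lay at the ends of the 48 h libraries. Against the 0 h mean, rho over all genes was -0.46, -0.40 and -0.29 in the 48 h libraries, in order. It was -0.17, -0.21 and -0.08 in those of 72 h and -0.17, 0.13 and 0.04 in those of 0 h. Over the members, the 48 h libraries gave -0.51, -0.26 and -0.28.

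Members on both sides of 20 kb, a limit set after the values were seen, had like median changes at 72 h against 0 h. The 19 members shorter than 20 kb had median changes of -0.98 at 48 h, -1.99 at 72 h and -1.01 between them, beside 0.18, 0.06 and -0.13 for all 3543 genes of that span. The 35 longer members had medians of -1.18, -1.96 and -0.79, beside -0.08, -0.05 and 0.03 for 5767 genes. When the trend of each library against gene span was removed, an alternative chosen after seeing the data, SPC24 at 48 h changed by -0.30 and was called (limma adjusted p = 0.0196). CDC25B then changed by -0.17 and was not (adjusted p = 0.0593), and BUB3 at 72 h changed by -0.24 and was called (adjusted p = 0.0390). The step from 48 h to 72 h was then called for ECT2 as well, and for CENPI it was -0.30 and not called (adjusted p = 0.0922). What links span with the changes was not tested.

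**Figure D4:**
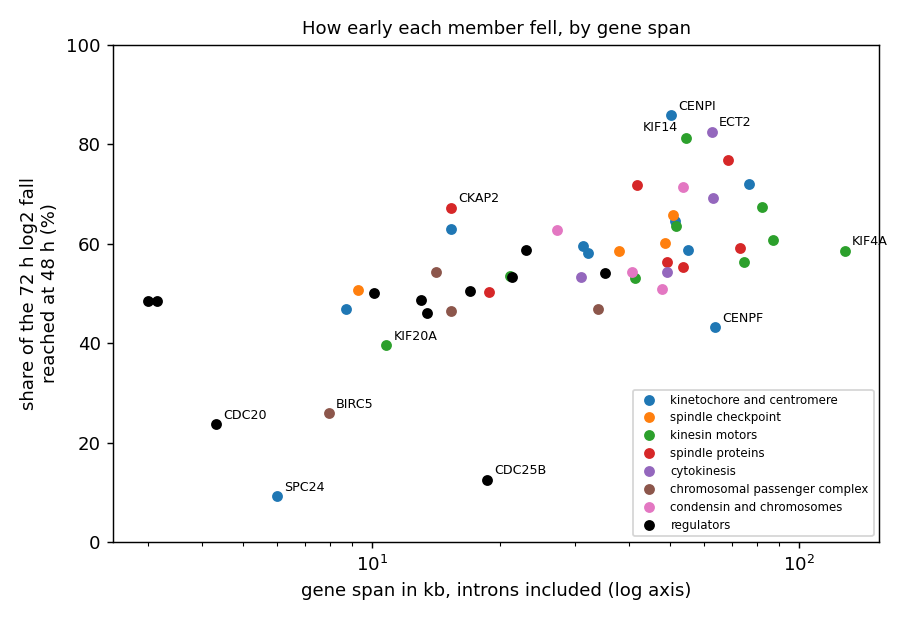
Share of the log2 fall at 72 h that was already reached at 48 h (vertical axis, percent) against gene span in kb on a log axis, for 53 tested mitosis genes coloured by class. Short genes such as SPC24, CDC20 and BIRC5 lie low, at 9.27% to 26.0%, and CENPI, KIF14 and ECT2, at 81.2% to 85.8%, span 50.3 to 62.5 kb. Against that order, CKAP2 (15.4 kb) lies at 67.2% and CENPF (63.9 kb) at 43.3%.

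Other genes of the mitotic machinery, from lists of related complexes, had smaller median falls than the 54 members. All these lists were chosen with earlier results of these data known, and the difference between them was not tested. As background, 22.4% of all tested genes were called lower at 48 h, 22.5% at 72 h and 16.3% at 72 h against 48 h. Of 24 further kinetochore and centromere genes, 22 were lower at 48 h, 23 at 72 h and 19 at 72 h against 48 h, with 0 higher and medians of -0.77, -1.13 and -0.55. CENPL of this list reached 1 FPKM only in the 0 h libraries and so could pass the filter only by being higher there. Without it the counts were 21, 22 and 18 of 23. CENPN, a reader of CENPA, had the largest 72 h fall of this list, -2.14 ± 0.08 (limma adjusted p = 1.79e-08). SPDL1, which recruits dynein to kinetochores, had the largest at 48 h, -1.29 ± 0.10 (adjusted p = 6.51e-06). MIS12, a subunit of the kinetochore's middle layer, had changes of -0.13 ± 0.07 at 48 h and -0.10 ± 0.07 at 72 h and was called at neither time (adjusted p = 0.168 and adjusted p = 0.285).

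The other 6 condensin genes included 5 lower at 48 h and 6 at 72 h (medians -0.99 and -1.68). Over all tested genes, 22.4% were lower and 27.6% higher at 48 h, and 22.5% and 23% at 72 h. SMC2, an ATPase shared by both condensins, changed by -1.33 ± 0.10 at 48 h (limma adjusted p = 5.09e-06). NCAPH2, of condensin II, changed by -0.16 ± 0.08 at 48 h, which was not called (adjusted p = 0.121), and by -0.63 ± 0.08 at 72 h (adjusted p = 9.95e-05). Of 12 cohesin genes, 10 were lower at 48 h and 9 at 72 h with 1 higher, ESCO1 (medians -0.52 and -0.39). Only CDCA5 of this list was called between 48 h and 72 h. CDCA5, or sororin, which holds sister chromatids together, fell from 6.92 to 3.55 and 1.38 FPKM. SMC1A, of the cohesin ring, had 32.4, 16.8 and 15.7 FPKM and no call for its later change of -0.09 ± 0.08 (adjusted p = 0.42).

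Of 14 anaphase-promoting complex genes, 8 were lower and 2 higher at 48 h, and 8 lower and 1 higher at 72 h (medians -0.28 and -0.24). Of all tested genes, 22.4% were lower and 27.6% higher at 48 h and 22.5% and 23% at 72 h, so the counts of higher genes in this list lie below the background and those of lower genes above it. The inhibitor FBXO5 fell from 9.70 to 5.51 and 2.16 FPKM. The small subunit ANAPC13 rose from 8.03 to 17.4 and 15.0 FPKM, a change of 1.02 ± 0.12 at 48 h (limma adjusted p = 7.02e-05). ANAPC15, the other subunit higher at 48 h and named after its values were seen, changed by 0.45 ± 0.12 (adjusted p = 0.0109) and was not called at 72 h (adjusted p = 0.563). Among 10 kinases, cyclins and phosphatases of mitotic entry and exit, 6 were lower at 48 h and 5 at 72 h with 0 higher (medians -0.36 and -0.51). They were led by MASTL, the kinase that restrains a phosphatase opposing CDK1, at -1.40 ± 0.09 at 48 h, and by CCNF, or cyclin F, at -2.19 ± 0.08 at 72 h. Among 20 further spindle and centrosome genes, 17 were lower at 48 h and 17 at 72 h with 0 higher (medians -0.61 and -0.89). They were led by SPAG5 at -1.65 ± 0.11 at 48 h and FAM83D at -2.13 ± 0.09 at 72 h. SPAG5 reached 1 FPKM only in the 0 h libraries, and without it the counts were 16 and 16 of 19 (medians -0.59 and -0.79). TUBGCP2, of the gamma-tubulin ring, was not called at either time.

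**Figure D5:**
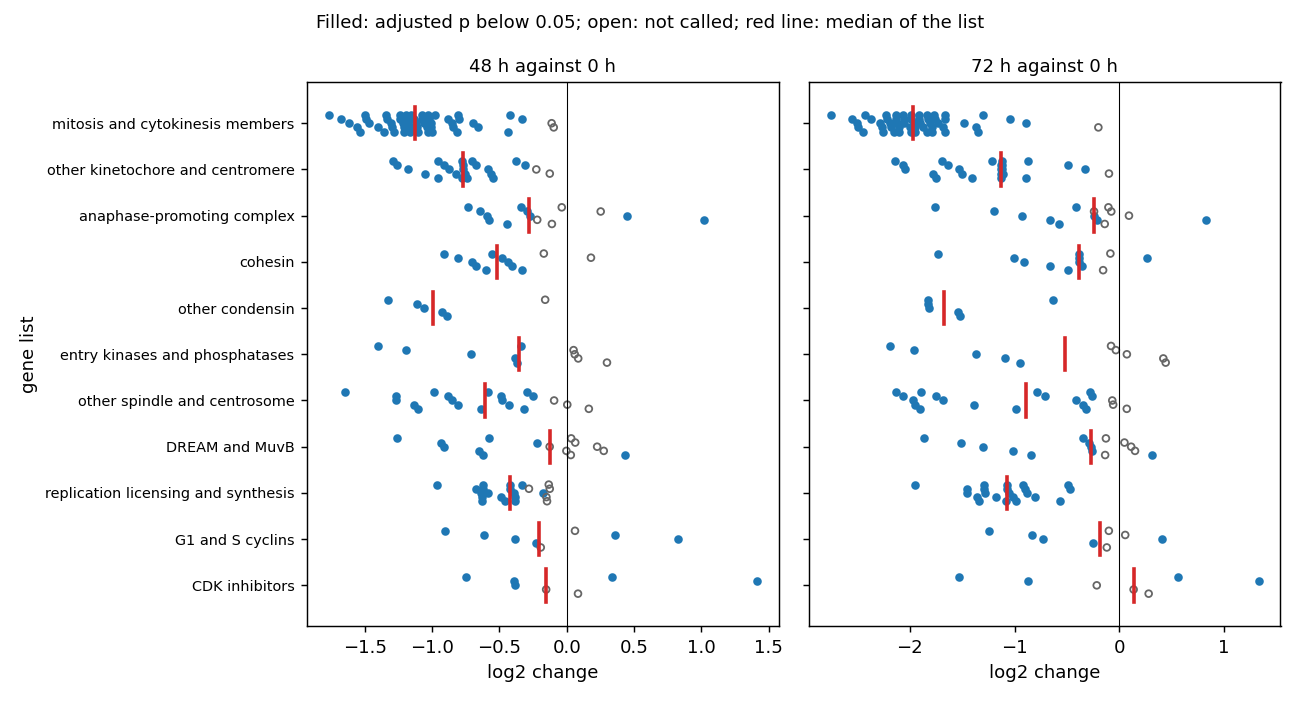
Log2 change (horizontal axes) of each tested gene at 48 h against 0 h (left) and at 72 h against 0 h (right), with the mitosis genes and the related lists in rows, filled points for genes called, open points for genes not called and a red line for the median of the list. The median of the mitosis genes lies at -1.13 and -1.97, that of the anaphase-promoting complex at -0.28 and -0.24.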

How the data were processed

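RNA of 9 PEF libraries, 3 per time, was analysed from per-sample tables of FPKM values that the authors deposited. Libraries were prepared with an NEBNext Ultra RNA kit after depletion of ribosomal RNA, per the labels' protocols. RSEM 1.2.28, featureCounts 2.0.2, HISAT2 2.1.0, DESeq2 and the build Sscrofa11.1 are named in the submitters' processing notes, with no role or order. The tool that made the FPKM and the use of strand in counting are not stated there, and genes that overlap on either strand may hold each other's reads. The tables hold no read counts and depth is unknown, so no counting interval is given.

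Of 30477 gene IDs, 14864 were paired with a symbol through a gene name table. Genes with at least 1 FPKM in at least 3 libraries were tested on log2(FPKM + 1) with limma 3.58.1 (R 4.3.3), group as the only term, empirical Bayes with trend, two-sided, Benjamini-Hochberg adjusted. Scripts were tested on simulated data. Gene positions, as protein-coding genes of RefSeq on Sscrofa11.1, were matched by symbol, and all 54 tested members had one. Members, classes and the related lists were chosen with earlier results of these data known. Members in full are the pair highest at 0 h in each class, the largest and smallest 48 h changes, those not called against 0 h, and the largest called changes from 48 h to 72 h. CENPI, KIF14, ECT2, CDK1 and FOXM1 were added after their values were seen. Of each related list, the genes at either end of the changes in a comparison were considered for naming. Alternatives were another pseudocount, filters, scalings, a replicate block, library weights, each library left out, and a gene span correction.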

Additional observations from a re-analysis of the deposited data

How the results depend on the processing

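The counts of members called lower stayed within 1.5 times of those reported under every alternative run. With 54 members tested, counts of 52, 53 and 51 could not rise by 1.5 times, so this limit bears only on large falls. With a pseudocount of 0.1 the members' median was -2.20 at 72 h against 0 h and -0.99 at 72 h against 48 h. With equal FPKM sums the median at 48 h was -1.26. With library weights, of which the second 48 h library took 21.8 and the others at most 1.35 after an estimate that stopped before it converged, the median at 72 h against 48 h was -0.97, 1 member was higher (BUB3, at 0.28, limma adjusted p = 0.00455) and 5756 genes were called in that comparison, against 2814. Leaving out each library in turn gave 52 to 52, 53 to 54 and 49 to 52 members lower and 0 to 0 higher at 72 h against 48 h, medians of -1.14 to -1.11, -2.05 to -1.93 and -0.90 to -0.83, and 4389 to 5757, 4039 to 5435 and 1725 to 3690 genes called at 48 h, at 72 h and between them. SPC24 at 48 h changed sign without the third 48 h library (-0.19 to 0.0033 over the libraries left out, adjusted p = 0.984 without that library), and the calls of ASPM, BUB3, CDC25B, CENPI, ECT2, KIF14 and SPC24 that changed are given with their values in the report. Over the 54 members, 2876 combinations of a result and a setting kept direction and call, 12 gained a call, 9 lost it and 1 changed sign. Whether the replicate numbers pair the libraries cannot be settled from these values. The 9 correlations of same-numbered deviations from the group means ran from -0.07 to 0.19, with 2 above 0.1. In 8 of 18 comparisons of a library with another group, its own number correlated best. With the replicate block, 52, 53 and 51 members were lower, the medians stayed at -1.13, -1.97 and -0.87, and 5632, 5152 and 3031 genes were called. The block changed no call of any of the 54 members. With a mean of at least 5 FPKM, 48 members were tested, of which 46, 47 and 45 were lower. FPKM hold no depth, so how far counting error adds to the spread of low members such as KIF14 could not be measured.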

Other observations

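Genes of the steps before mitosis fell too. As background, 22.4% of all tested genes were called lower at 48 h, 22.5% at 72 h and 16.3% at 72 h against 48 h. Of 22 tested genes of replication licensing and DNA synthesis, 17 were lower at 48 h (median -0.42), 22 at 72 h (median -1.07) and 21 at 72 h against 48 h (median -0.65), with 0 higher. CDC6 of this list reached 1 FPKM only in the 0 h libraries and so could pass the filter only by being higher there, and without it 16, 21 and 20 of 21 were lower (medians -0.42, -1.07 and -0.71). CDC45, a subunit of the replicative helicase, fell from 27.8 ± 1.85 FPKM at 0 h to 13.8 ± 0.453 at 48 h and 6.49 ± 0.846 at 72 h (SD, n = 3). CDT1, a licensing factor, was not called at 48 h (-0.13 ± 0.11, limma adjusted p = 0.356) and fell at 72 h (-1.07 ± 0.11, adjusted p = 1.73e-05). Of 15 genes of the DREAM and MuvB complexes and their partners, 7 were lower and 1 higher at 48 h and 9 lower and 1 higher at 72 h (medians -0.13 and -0.27). Of all tested genes, 49.9% at 48 h and 45.5% at 72 h were called in either direction. The list's count over both directions at 48 h is near that background. Calls of a rise made up 27.6% of all tested genes at 48 h and 23% at 72 h. Taken by direction, the list held more lower and fewer higher calls than all genes at both times. MYBL2, the B-Myb activator that joins MuvB, fell from 118 to 75.2 and 31.9 FPKM. LIN9, a MuvB core subunit, was at 8.77, 3.14 and 3.003 FPKM. RBL2, a pocket protein of the repressing form, was not called at 48 h and rose at 72 h (0.31 ± 0.09, adjusted p = 0.0194).

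Lists of G1 cyclins and CDK inhibitors held calls in both directions, as did all tested genes, of which 22.4% were lower and 27.6% higher at 48 h and 22.5% and 23% at 72 h. Of 8 G1 and S cyclins and their kinases, 4 were lower and 2 higher at 48 h and 4 lower and 1 higher at 72 h. CCND1, or cyclin D1, rose from 22.1 ± 0.284 FPKM at 0 h to 40.0 ± 1.64 at 48 h (0.83 ± 0.06, limma adjusted p = 2.82e-06) and stood at 29.7 ± 1.17 at 72 h (0.41 ± 0.06, adjusted p = 0.000178). CCNE2, or cyclin E2, fell from 4.08 to 2.31 and 1.13 FPKM. The kinase CDK6 fell at 48 h (-0.90 ± 0.14, adjusted p = 0.000415). Of 7 CDK inhibitors, 3 were lower and 2 higher at 48 h and 2 lower and 2 higher at 72 h. CDKN1C, or p57, rose from 1.65 ± 0.207 FPKM to 6.05 ± 0.505 and 5.69 ± 0.864 (1.41 ± 0.11 at 48 h, adjusted p = 4.41e-06). CDKN2C, or p18, changed by -1.53 ± 0.11 at 72 h (adjusted p = 1.56e-06). CDKN1A, or p21, named after its values were seen, rose from 105 ± 0.474 FPKM to 133 ± 14.2 and 156 ± 7.06 (0.56 ± 0.07 at 72 h, adjusted p = 0.000117).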
